A study of Mus musculus with 18 samples.

Results

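The 10 genes *Cd5*, *Bhlhe41*, *Zbtb32*, *Fcrl5*, *Anxa2*, *S100a6*, *S100a10*, *Lgals1*, *Vim*, and *Ahnak* were followed in B cells from spleen and Peyer's patches (PP) of OVA-allergic mice. They were chosen by gene symbol from the 55491 genes of the deposited count table. Earlier results of these data were known at that point. Setting the 10 genes beside the shares over all genes is therefore not an independent test. *Cd5*, *Bhlhe41*, *Zbtb32*, and *Fcrl5* are genes linked to B-1 and memory B cells, and the other 6 encode annexin A2, S100 proteins, galectin-1, vimentin, and the scaffold protein AHNAK. Each symbol matched 1 row, all 10 genes passed the filter on low counts in every comparison, and their counts ranged from 17 to 6896 per library.

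Female BALB/cJ mice were sensitized i.p. at 4 to 6 weeks of age with 20 µg OVA, the egg allergen ovalbumin, and 1 mg alum on days 0 and 14. Sensitization was common to every group, PBS controls included. On days 28 and 42 the mice were given i.v. 2.5 mg OVA NP (particles that carry OVA), 100 µg soluble OVA, or 100 µL PBS, and B cells were taken on day 44 at 10 to 12 weeks of age. The 3 treatments and 2 tissues gave 6 groups of 3 libraries, 18 in all. Both treatments were compared with the same PBS libraries, so the comparisons with PBS in a tissue share their controls. B cells were enriched by magnetic removal of other cells and were not sorted into B-1, memory, or germinal center (GC) B cells. The labels call the 3 libraries of a group biological replicates, and the spleen OVA NP and spleen PBS groups came from 3 mice each. For the other groups the sources used here do not give the number of mice, and for no group do they say that spleen and PP of the same number came from 1 mouse.

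Annexin A2 binds membrane phospholipids when calcium rises, and it pairs with S100A10, which is itself stable mainly in that complex. AHNAK, a very large scaffold protein, docks onto the annexin A2 and S100A10 complex beneath the plasma membrane, S100A6 is a small calcium sensor, galectin-1 binds glycans on cell surfaces, and vimentin is the intermediate filament of lymphocytes. B-1 cells are innate-like B cells that make natural antibody: CD5 is the surface protein that marks B-1a cells, BHLHE41 is a transcriptional repressor needed to maintain them, FCRL5 is a receptor that tunes antigen receptor signals in marginal zone and B-1 cells, and ZBTB32 is a repressor that restrains memory B cell recall responses.

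All 10 are protein-coding genes, placed here on GRCm38. *Anxa2* lies at chr9:69453620-69491795 (plus strand, 15 exon blocks), *S100a10* at chr3:93555080-93564643 (plus, 4), *S100a6* at chr3:90612882-90624181 (plus, 5), *Ahnak* at chr19:8989284-9076914 (plus, 10), and *Lgals1* at chr15:78926725-78930465 (plus, 5). *Vim* lies at chr2:13573927-13582826 (plus, 7), *Zbtb32* at chr7:30589681-30598909 (minus, 8), *Bhlhe41* at chr6:145858243-145865558 (minus, 3), *Fcrl5* at chr3:87435773-87500678 (plus, 14), and *Cd5* at chr19:10717116-10739002 (minus, 11). The sources used here do not state whether counting used strand. *Bhlhe41* shares 1280 exon bases with *Gm43909* on the opposite strand (50 to 91 counts per library, against 388 to 1275 for *Bhlhe41*), so reads in the shared bases cannot be told apart if counting ignored strand. *Anxa2* shares 98 exon bases with the antisense gene *Gm16144*, which had 0 to 4 counts. The *Lgals1* pseudogene copies *Lgals1-ps2* and *Lgals1-ps1* had 0 to 5 and 0 counts.

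RefSeq (GRCm38.p6) promoters were at hand for 8 of the 10 genes, not for *S100a10* and *Lgals1*. The 250 bases before the RefSeq start are shown for *Anxa2* and *Vim*, whose RNA moved in opposite directions in PP B cells after soluble OVA, and for *Bhlhe41*, whose protein binds the E box CACGTG. They span chr9:69453433-69453682 (plus strand), chr2:13574061-13574310 (plus strand), and chr6:145865421-145865670 (minus strand). Capitals mark every match, on either strand, to the E box CACGTG, the AP-1 site TGANTCA, the GC box GGGCGG, and the TATA box TATAAA. A GC box of the other strand reads CCGCCC.
Anxa2: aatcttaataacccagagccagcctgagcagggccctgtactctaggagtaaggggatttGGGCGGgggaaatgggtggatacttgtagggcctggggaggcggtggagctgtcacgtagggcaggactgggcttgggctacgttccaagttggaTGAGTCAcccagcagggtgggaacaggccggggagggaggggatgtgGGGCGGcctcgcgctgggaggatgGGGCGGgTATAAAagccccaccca
Vim: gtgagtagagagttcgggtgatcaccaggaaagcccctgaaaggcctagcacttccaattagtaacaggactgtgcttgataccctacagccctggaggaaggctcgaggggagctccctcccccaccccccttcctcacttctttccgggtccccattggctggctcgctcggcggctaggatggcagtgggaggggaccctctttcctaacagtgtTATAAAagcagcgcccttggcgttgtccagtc
Bhlhe41: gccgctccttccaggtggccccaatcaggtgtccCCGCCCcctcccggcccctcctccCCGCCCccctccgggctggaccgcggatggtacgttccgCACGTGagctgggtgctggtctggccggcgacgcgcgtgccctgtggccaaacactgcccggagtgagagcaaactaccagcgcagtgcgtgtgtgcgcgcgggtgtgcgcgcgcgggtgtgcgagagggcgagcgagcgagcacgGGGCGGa
The *Anxa2* window held 1 AP-1 site, 3 GC boxes, and 1 TATA box, and the last GC box stood 1 base from the TATA box. *Vim* held 1 TATA box, and *Bhlhe41* held 1 E box and 3 GC boxes. No match overlapped another. Among the others, *Fcrl5* held 1 AP-1 site and 1 TATA box, *Ahnak* held 3 GC boxes, and the windows of *S100a6*, *Cd5*, and both RefSeq starts of *Zbtb32* held none of these letters. Of 32851 mouse promoter windows of this length, 6.02% held the E box, 6.75% the AP-1 site, 32.7% the GC box, and 12.4% the TATA box. These matches describe letters and not binding.

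Library totals ran from 14177253 to 30052297 counts, so 3 counts corresponded to 0.0998 to 0.212 CPM, which scales counts to library size (counting error only). The B cell marker sum (6 genes) was 6460 to 7650 CPM in spleen and 4820 to 5850 CPM in PP libraries. The T cell sum (11 genes) was 195 to 246 CPM over all 18 libraries, but single genes of that list differed between groups, as given below. The T cell receptor chain gene *Cd3e* was at 0.347 to 1.87 CPM in spleen and 0.98 to 5.75 CPM in PP libraries. PP libraries held more mitochondrial counts (4.97% to 9.80%, against 2.82% to 3.41% in spleen) and epithelial marker RNA (7 genes, 185 to 933 CPM, against 7.15 to 10.1 CPM). GC B cell marker RNA (8 genes such as *Bcl6*) summed to 103 to 163 CPM in spleen PBS, 348 to 493 CPM in spleen soluble OVA, 336 to 368 CPM in spleen OVA NP, 1030 to 1230 CPM in PP PBS, 1900 to 1940 CPM in PP soluble OVA, and 823 to 1250 CPM in PP OVA NP. Proliferation marker RNA (8 genes such as *Mki67*) followed with 302 to 362, 912 to 1050, 791 to 1110, 1290 to 1610, 3090 to 3390, and 1040 to 1530 CPM in the same order. PP PBS replicate 2 had the smallest total, the lowest mitochondrial share of its group (5.41%), and the lowest epithelial sum (185 CPM). In bulk RNA, fewer cells of a type and less RNA per cell cannot be told apart.

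**Figure D1:**
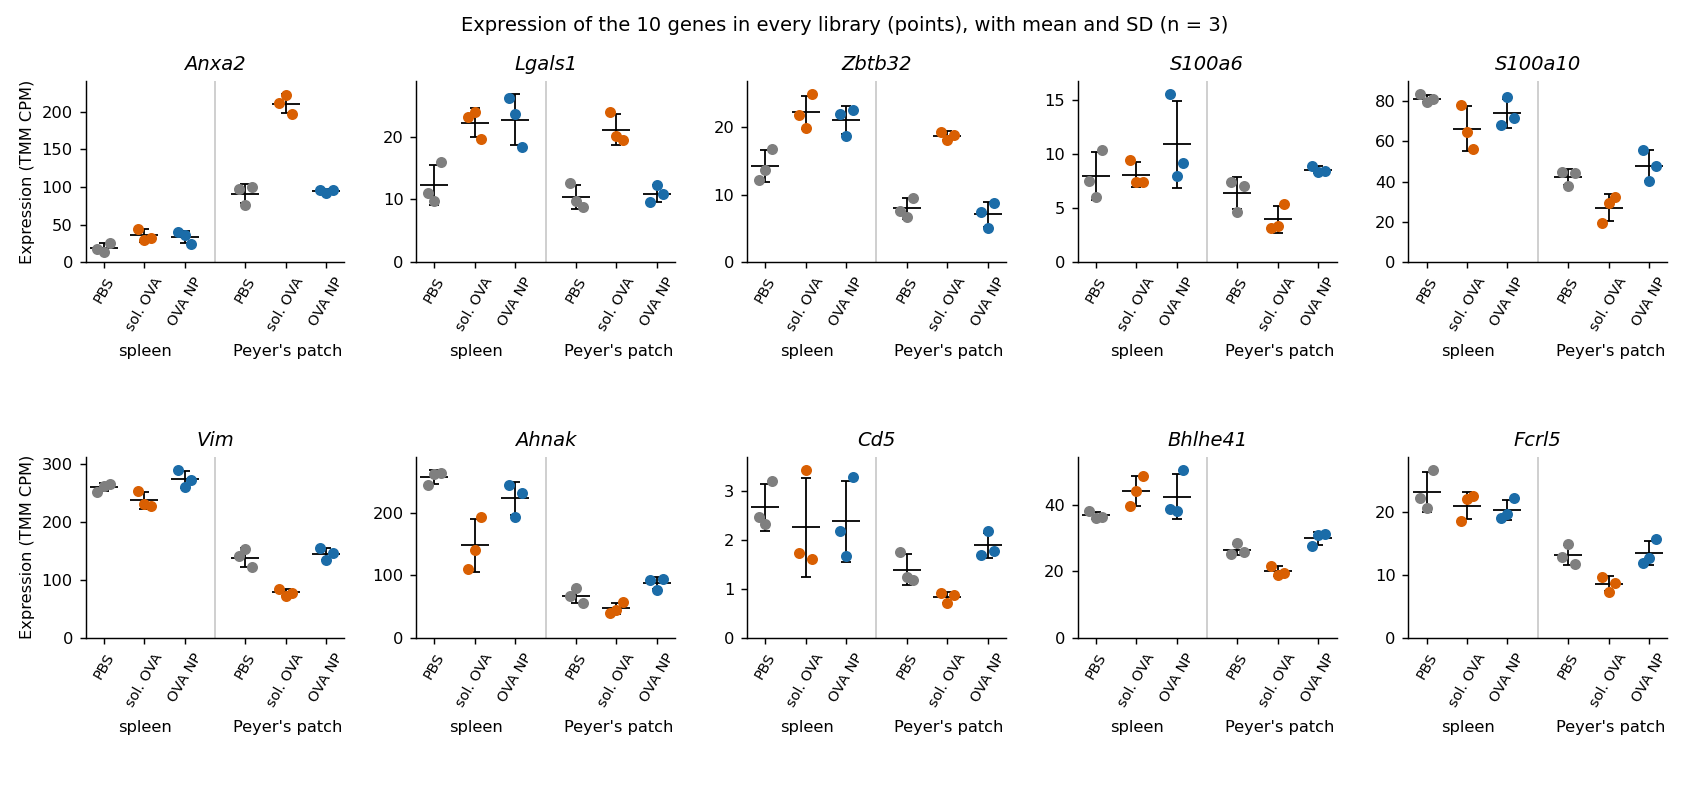
Expression of the 10 genes in each of the 18 libraries (points, TMM-scaled CPM on linear axes from 0), by tissue and treatment, with the mean and SD of 3 libraries (bars). The 3 PP soluble OVA libraries stand above all other libraries for *Anxa2* (198 to 222 CPM) and below all others for *Vim* (72.8 to 85.2 CPM).

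Soluble OVA was compared with PBS in PP B cells to see how the 10 genes responded to free allergen, and they moved in both directions. *Anxa2*, *Zbtb32*, and *Lgals1* rose to 2.29-, 2.33-, and 2.02-fold their PBS level, while *Vim*, *S100a10*, *Fcrl5*, and *Bhlhe41* fell to 0.561, 0.636, 0.648, and 0.752 of it. *S100a6*, *Cd5*, and *Ahnak* were at 0.612, 0.59, and 0.697 of the PBS level but did not pass the test. Thus 7 of 10 genes were called, 3 higher and 4 lower, against 27.4% of the 15792 genes tested (13.5% higher, 13.9% lower). A call required, by the edgeR quasi-likelihood test, an adjusted p below 0.05 together with a log2 fold change of more than 0.25 in either direction. The median log2 fold change of the 10 was -0.57, beside -0.017 over all genes tested. Treated and PBS libraries did not overlap for 8 of the 10, and for 45.1% of all genes. The GC and proliferation sums given above were higher in the same libraries, and the stromal and endothelial sum (8 genes) was lower, at 99.4 to 119 CPM against 210 to 274 CPM in PP PBS. The stromal and endothelial list includes *Pecam1*, and the paper predicts PECAM-1 signaling from B cells of the small intestine. The sum of this list was 166 to 249 CPM in spleen libraries, so it need not come from stromal or endothelial cells. The part of these sums in the differences was not tested.

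OVA NP was compared with PBS in PP B cells to ask the same of the particles. No gene of the 10 was called (edgeR), 1 had an unadjusted p under 0.05 (*Ahnak*), and DESeq2 called 0. The background was as empty, with 0% of 15798 genes called by edgeR, 1573 genes at an unadjusted p under 0.05, and 150 called by DESeq2. The fitted log2 fold changes of the 10 lay between -0.15 ± 0.24 for *Zbtb32* and 0.44 ± 0.33 for *Cd5* (± SE), and libraries were apart for *S100a6* alone, against 17.3% of all genes.

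OVA NP and soluble OVA were compared directly in PP B cells. All 10 genes were called, 7 higher after OVA NP (*Cd5*, *S100a6*, *Ahnak*, *Vim*, *S100a10*, *Fcrl5*, and *Bhlhe41*) and 3 lower (*Zbtb32*, *Anxa2*, and *Lgals1*), where 30.1% of 15599 genes were called (13.8% higher, 16.3% lower). The 2 sets of 3 libraries did not overlap for any of the 10, and 48.4% of all genes had no overlap. The median absolute log2 fold change was 0.929 for the 10 and 0.321 for all genes tested. Marker RNA differed between the same libraries, at 1040 to 1530 CPM with OVA NP and 3090 to 3390 CPM with soluble OVA for proliferation. In the same order the values were 823 to 1250 and 1900 to 1940 CPM for GC B cells. For the stromal and endothelial list, which includes *Pecam1*, they were 152 to 201 and 99.4 to 119 CPM. Mitochondrial counts also differed, at 9.08% to 9.80% with OVA NP and 4.97% to 6.02% with soluble OVA, and *Cd3e* was at 4.65 to 5.75 CPM against 0.98 to 2.14 CPM. Of 11 T cell genes tested, 7 were called higher with OVA NP and 1 lower. The NK cell sum was 33 to 49.4 CPM against 16.3 to 24.9 CPM, and the dendritic cell sum 36 to 41.4 CPM against 30.8 to 33.2 CPM. Monocyte and macrophage sums overlapped, at 308 to 403 CPM and 169 to 399 CPM. Their part was not tested.

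In splenic B cells, *Zbtb32* and *Lgals1* rose after either treatment. OVA NP against PBS called these 2 of the 10 genes, both higher, and 15.0% of 14200 genes (8.60% higher, 6.35% lower). Soluble OVA against PBS called 4 of the 10 genes, *Zbtb32*, *Lgals1*, and *Bhlhe41* higher and *S100a10* lower, and 17.2% of 14128 genes (10.5% higher, 6.72% lower). Libraries did not overlap for 3 of 10 genes with OVA NP (37.2% of all genes) and for 6 of 10 with soluble OVA (37.8%). Between the 2 treatments no gene of the 10 was called by edgeR or DESeq2, 2 had an unadjusted p under 0.05 (*Vim* and *Ahnak*), and 0.238% of 13840 genes were called (0.137% higher, 0.101% lower). The GC and proliferation sums were higher with both treatments. Plasma cell marker RNA (7 genes) was 381 to 439 CPM in PBS libraries, 494 to 565 CPM with soluble OVA, and 613 to 631 CPM with OVA NP. Monocyte and macrophage marker RNA (13 genes) was 106 to 248 CPM in PBS libraries. It was 31.8 to 76.4 CPM with soluble OVA and 42.8 to 155 CPM with OVA NP. Their part was not tested.

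**Figure D2:**
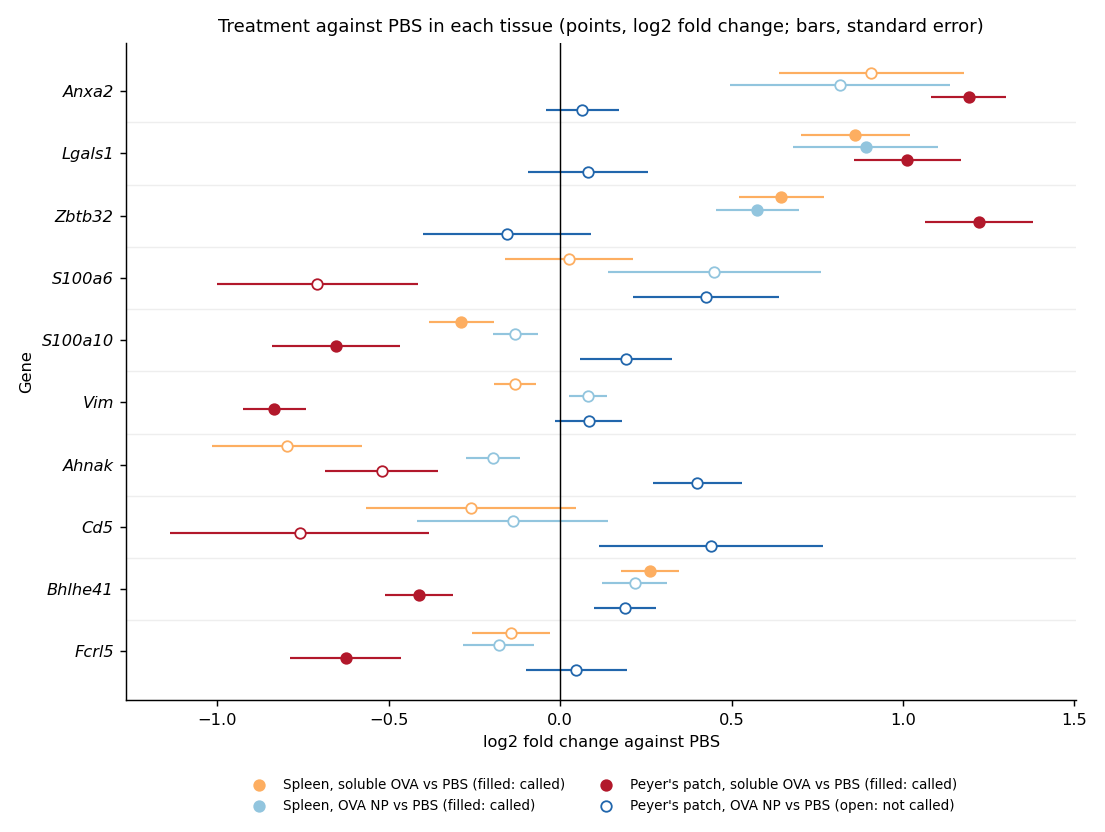
Log2 fold change against PBS of the 10 genes in spleen and Peyer's patch after soluble OVA or OVA NP (points; bars, SE; filled points pass the test). The Peyer's patch OVA NP comparison has no filled point, and in the other 3 *Anxa2*, *Lgals1*, and *Zbtb32* lie between 0.58 and 1.22.

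Between tissues, *Anxa2* was the 1 gene of the 10 that was higher in PP than in splenic B cells, and it was so in each treatment. In PBS-treated mice 8 of the 10 were called, *Anxa2* higher and *Ahnak*, *S100a10*, *Cd5*, *Vim*, *Zbtb32*, *Fcrl5*, and *Bhlhe41* lower in PP, where 45.6% of 15463 genes were called (25.5% higher, 20.1% lower). In soluble OVA-treated mice 8 were called, *Anxa2* higher and 7 lower, against 51.1% of 15415 genes (26.7% higher, 24.3% lower), and in OVA NP-treated mice 8 were called, again *Anxa2* higher and 7 lower, against 37.1% of 15466 genes (22.0% higher, 15.1% lower). Libraries of the tissues did not overlap for 8, 9, and 8 of the 10 genes with PBS, soluble OVA, and OVA NP, and for 60.2%, 62.7%, and 54.6% of all genes. Of the T cell list, 6 of 7 genes tested were called higher in PP with PBS, 5 of 8 with soluble OVA, and 10 of 11 with OVA NP. In each treatment 1 was called lower. The part of T cell RNA in the tissue differences was not tested. The effect of a treatment was compared between tissues as an interaction over 12 libraries, called at an adjusted p under 0.05. For soluble OVA it was called for *Vim* and *Bhlhe41*, both with a lower log2 response in PP than in spleen (6.84% of 16541 genes, 1.77% higher and 5.07% lower), and for OVA NP for none of the 10 by edgeR (4.42% of 16619 genes, 0.872% higher and 3.54% lower), 4 at an unadjusted p under 0.05, and 1, *Ahnak*, by DESeq2.

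**Figure D3:**
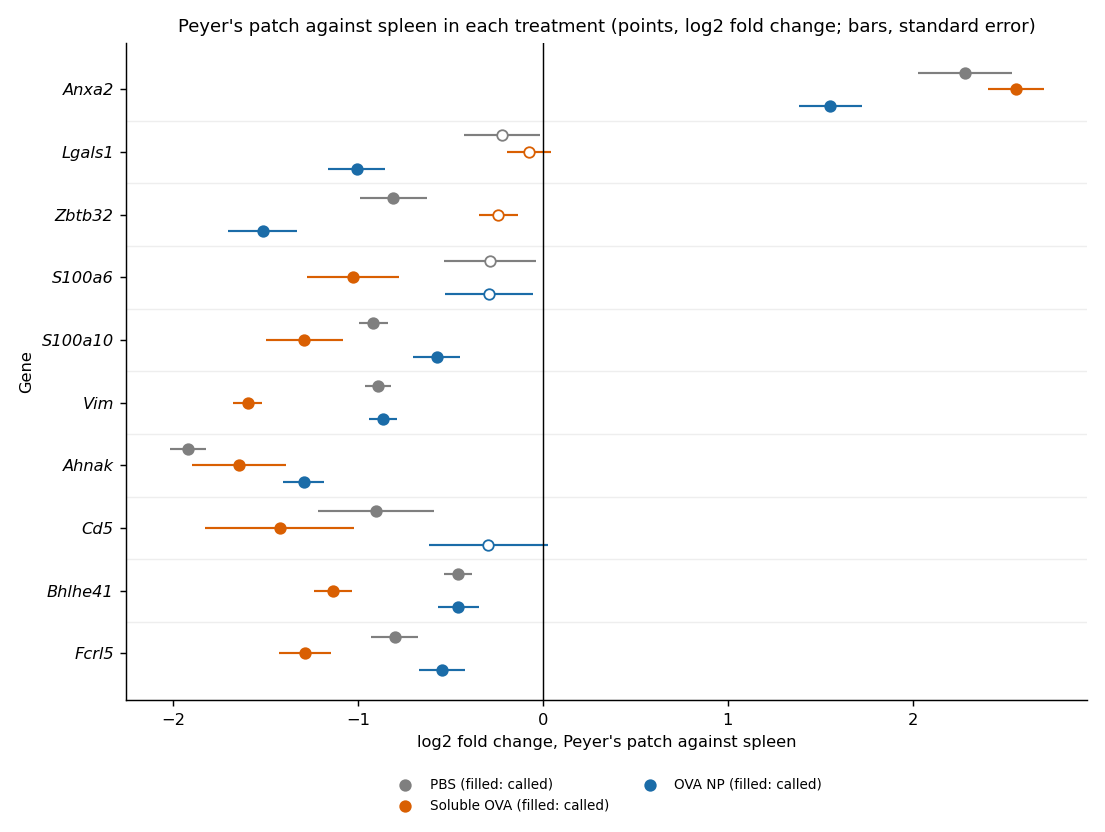
Log2 fold change of Peyer's patch against spleen for the 10 genes in PBS, soluble OVA, and OVA NP groups (points; bars, SE; filled points pass the test). *Anxa2* lies right of 0 in all 3, between 1.55 and 2.56, and no other gene has a filled point right of 0.

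*Anxa2*, the gene of annexin A2, varied most among the 10, with group means spanning 11-fold. In PP it was at 97.1, 76.4, and 100 CPM in the PBS libraries, 212, 222, and 198 CPM with soluble OVA, and 96.5, 92.1, and 95.5 CPM with OVA NP. In spleen it was at 17.7, 13.8, and 25.8 CPM with PBS, 44.7, 29.1, and 32.8 CPM with soluble OVA, and 40.4, 35.6, and 24.6 CPM with OVA NP. The soluble OVA libraries of PP stood above every other library, every PP library stood above every spleen library, and in spleen the soluble OVA libraries lay just above those of PBS while OVA NP and PBS overlapped. In PP the log2 fold change (± SE) was 1.19 ± 0.11, adjusted p = 0.000132 for soluble OVA against PBS and -1.14 ± 0.076, adjusted p = 0.000129 for OVA NP against soluble OVA. The PP OVA NP and PBS libraries differed by 0.065 ± 0.11, adjusted p = 0.853. In spleen the differences were 0.91 ± 0.27, adjusted p = 0.0736 for soluble OVA and 0.82 ± 0.32, adjusted p = 0.167 for OVA NP. Both missed the threshold, but DESeq2 called the soluble OVA difference (adjusted p = 0.000343), as did edgeR without spleen PBS replicate 3 (1.19, adjusted p = 0.00418). A fit to all 18 libraries called both (adjusted p = 0.0181 and 0.0402). DESeq2 as run here did not call the OVA NP difference. The paper, which also used DESeq2, names *Anxa2* among regulatory B cell markers higher in spleen after OVA NP. It names *Lgals1* and *Zbtb32* as well, which were called here. PP exceeded spleen by 2.28 ± 0.25, adjusted p = 0.000806 in PBS, 2.56 ± 0.15, adjusted p = 6.17e-06 in soluble OVA, and 1.55 ± 0.17, adjusted p = 0.000416 in OVA NP groups.

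The epithelial marker sum was high in the same PP libraries as *Anxa2*, and its part in the tissue difference was not tested. Within PP it was 185 to 637 CPM with PBS, 232 to 933 CPM with soluble OVA, and 432 to 860 CPM with OVA NP.

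**Figure D4:**
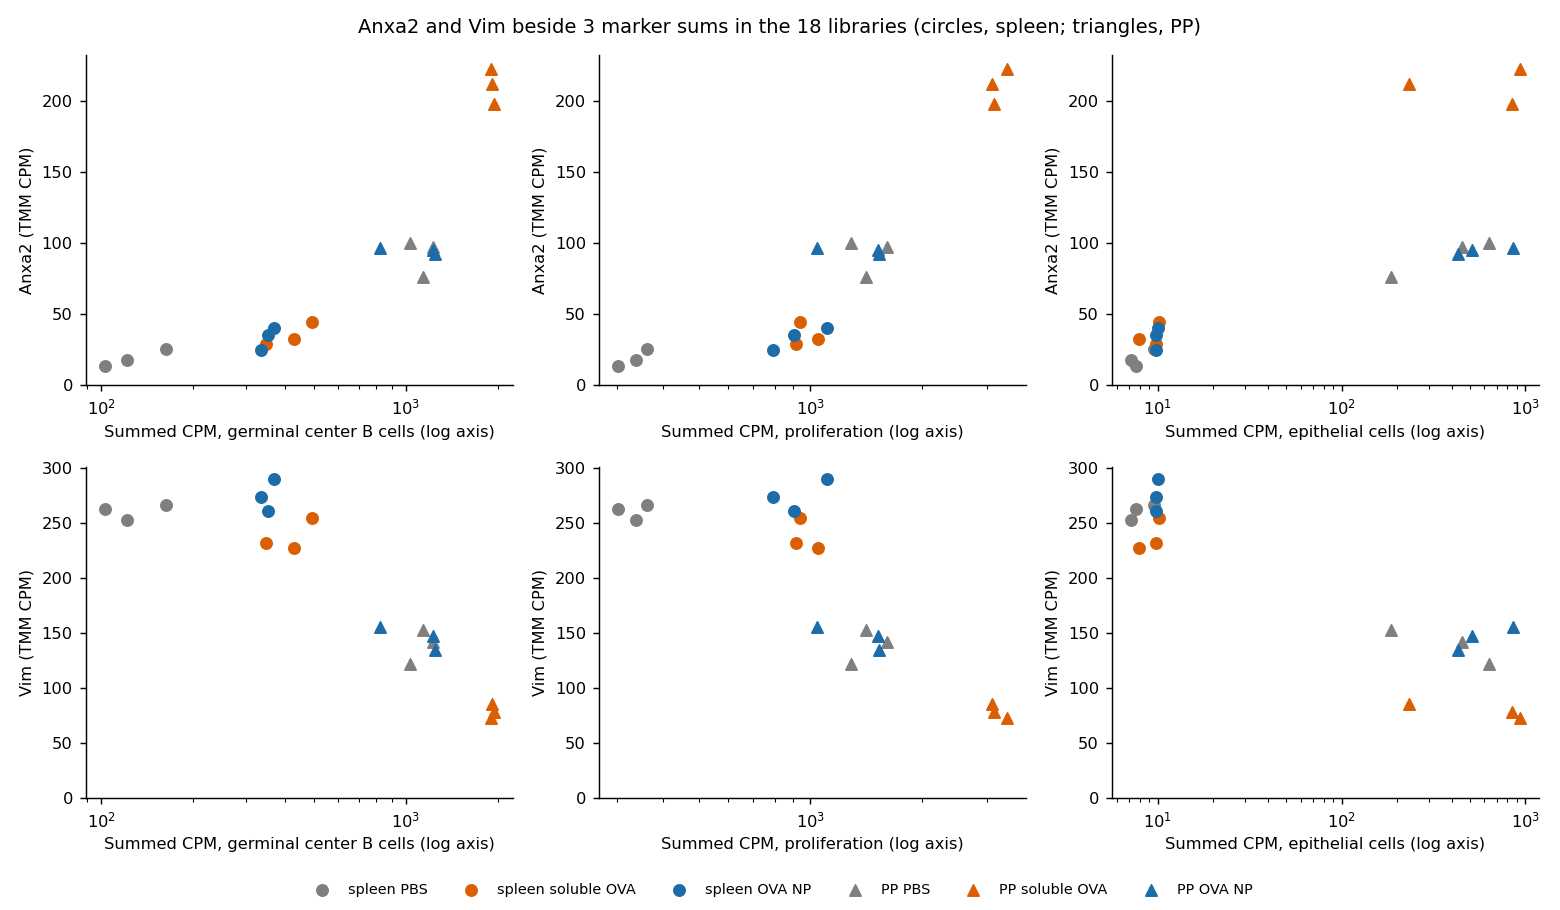
*Anxa2* and *Vim* (CPM, linear axes from 0) in the 18 libraries against the summed CPM of GC B cell, proliferation, and epithelial marker genes (log axes). Circles are spleen and triangles PP, colored by treatment. The PP soluble OVA libraries lie at 1900 to 1940 CPM of GC markers with the highest *Anxa2* and the lowest *Vim*, and their epithelial sums run from 232 to 933 CPM.

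*S100a10*, the gene of the annexin A2 partner S100A10, did not follow *Anxa2*. It was at 44.7, 37.9, and 44.2 CPM in PP PBS, 19.7, 29.6, and 32.1 CPM in PP soluble OVA, and 55.8, 40.1, and 47.6 CPM in PP OVA NP libraries. In spleen it was at 83.2, 79.4, and 81, 78, 64.8, and 56.1, and 68.2, 82, and 71.6 CPM with PBS, soluble OVA, and OVA NP. The soluble OVA libraries were the lowest in PP and lay below the PBS libraries in spleen, without overlap in either tissue. The log2 fold change for soluble OVA was -0.65 ± 0.19, adjusted p = 0.0378 in PP and -0.29 ± 0.093, adjusted p = 0.0472 in spleen. In PP, OVA NP exceeded soluble OVA by 0.84 ± 0.20, adjusted p = 0.0186. These 3 calls depended on single libraries. The PP call against PBS was lost without PP PBS replicate 1 or 3 or PP soluble OVA replicate 2 (adjusted p = 0.117, 0.125, and 0.0563), and the PP call between treatments without OVA NP replicate 1 or 3 (adjusted p = 0.0977 and 0.0904). The spleen call was lost without any 1 of the 3 PBS libraries or soluble OVA replicate 2 or 3 (adjusted p = 0.164, 0.1, 0.117, 0.136, and 0.142) and in the fit to all 18 libraries (adjusted p = 0.279). Against PBS, OVA NP gave 0.19 ± 0.14, adjusted p = 0.654 in PP and -0.13 ± 0.065, adjusted p = 0.182 in spleen. Compared with spleen, PP gave -0.92 ± 0.081, adjusted p = 1.51e-05 in PBS, -1.29 ± 0.21, adjusted p = 0.00219 in soluble OVA, and -0.58 ± 0.13, adjusted p = 0.00816 in OVA NP groups.

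Levels per exon length put these partners on a common scale. The *Anxa2* to *S100a10* ratio was 0.069, 0.0567, and 0.103 in spleen PBS, 0.186, 0.146, and 0.19 in spleen soluble OVA, and 0.193, 0.141, and 0.112 in spleen OVA NP libraries. It was 0.706, 0.655, and 0.735 in PP PBS, 3.5, 2.44, and 2.00 in PP soluble OVA, and 0.562, 0.746, and 0.651 in PP OVA NP libraries. The exon lengths used were 3731 bases for *Anxa2* and 1212 for *S100a10*, each combined over all annotated transcripts. On this scale *Anxa2* exceeded *S100a10* in the 3 PP soluble OVA libraries and lay below it in the other 15. By CPM alone, *Anxa2* was above *S100a10* in every PP library. The order of the 2 genes in PP PBS and PP OVA NP libraries thus depended on the lengths used.

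*Ahnak*, whose product docks on that complex, was at 243, 262, and 264 CPM in spleen PBS, 110, 140, and 193 CPM in spleen soluble OVA, and 244, 194, and 231 CPM in spleen OVA NP libraries. In PP it was at 66.2, 79, and 56.4, 39.8, 44.7, and 56.9, and 93, 76.9, and 93.2 CPM with PBS, soluble OVA, and OVA NP. Spleen libraries were above all PP libraries, and the spleen soluble OVA libraries lay below those of PBS and, by a narrow margin, of OVA NP. PP against spleen gave -1.92 ± 0.10, adjusted p = 9.45e-07 on the log2 scale in PBS, -1.65 ± 0.25, adjusted p = 0.00329 in soluble OVA, and -1.30 ± 0.11, adjusted p = 4.18e-05 in OVA NP groups. OVA NP exceeded soluble OVA in PP by 0.91 ± 0.14, adjusted p = 0.0019. Soluble OVA against PBS gave -0.80 ± 0.22, adjusted p = 0.0639 in spleen and -0.52 ± 0.17, adjusted p = 0.0537 in PP, just short of a call. DESeq2 called both (adjusted p = 0.0103 and 0.00812), and edgeR called the first without spleen soluble OVA replicate 3 (-1.04, adjusted p = 3.22e-05) and the second without PP PBS replicate 3 or PP soluble OVA replicate 3 (adjusted p = 0.0463 and 0.0264). For OVA NP against PBS the log2 fold change was 0.40 ± 0.13, adjusted p = 0.386 in PP and -0.20 ± 0.079, adjusted p = 0.107 in spleen, and the difference between tissues was 0.61 ± 0.16, adjusted p = 0.052. That difference was called without PP OVA NP replicate 2 or PP PBS replicate 2 (adjusted p = 0.0268 and 0.0175), and the spleen comparison without OVA NP replicate 1 (-0.27, adjusted p = 0.0221).

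*S100a6*, the gene of a small calcium sensor, was low in every group. It was at 7.46, 4.69, and 7.08 CPM in PP PBS, 3.15, 3.37, and 5.39 CPM in PP soluble OVA, and 8.93, 8.35, and 8.47 CPM in PP OVA NP libraries. In spleen the range over the 9 libraries was 6.07 to 15.5 CPM, the highest in OVA NP replicate 1, where the neutrophil marker sum was also the highest of the series; its part was not tested. The PP OVA NP libraries lay above both other PP groups, and those of PBS and soluble OVA overlapped. OVA NP exceeded soluble OVA in PP by 1.13 ± 0.24, adjusted p = 0.00731. Against PBS the log2 fold changes were 0.43 ± 0.21, adjusted p = 0.533 for OVA NP and -0.71 ± 0.29, adjusted p = 0.104 for soluble OVA in PP, and 0.45 ± 0.31, adjusted p = 0.377 and 0.026 ± 0.19, adjusted p = 0.944 in spleen. The spleen OVA NP difference was called by edgeR without a count filter (0.43, adjusted p = 0.0441). Between PP and spleen the values were -1.03 ± 0.25, adjusted p = 0.00635 with soluble OVA, -0.29 ± 0.25, adjusted p = 0.37 with PBS, and -0.29 ± 0.24, adjusted p = 0.365 with OVA NP.

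*Lgals1*, the gene of galectin-1, rose in both tissues after soluble OVA. It was at 12.5, 9.67, and 8.82 CPM in PP PBS, 23.9, 20, and 19.4 CPM in PP soluble OVA, and 9.62, 12.2, and 10.8 CPM in PP OVA NP libraries. In spleen it was at 11.1, 9.81, and 15.9, 23.1, 24, and 19.6, and 26.1, 23.6, and 18.3 CPM with PBS, soluble OVA, and OVA NP. Both treatments lay above PBS in spleen, whereas in PP soluble OVA alone stood apart and OVA NP overlapped PBS. The log2 fold change for soluble OVA was 1.01 ± 0.16, adjusted p = 0.00166 in PP and 0.86 ± 0.16, adjusted p = 0.00304 in spleen, and for OVA NP 0.89 ± 0.21, adjusted p = 0.0265 in spleen and 0.082 ± 0.17, adjusted p = 0.89 in PP. The OVA NP call in spleen was lost without PBS replicate 1 or 2 or OVA NP replicate 1 or 2 (adjusted p = 0.0967, 0.056, 0.0691, and 0.0901). In PP, OVA NP against soluble OVA gave -0.95 ± 0.14, adjusted p = 0.00162. PP differed from spleen by -1.01 ± 0.15, adjusted p = 0.000741 with OVA NP, and by -0.22 ± 0.21, adjusted p = 0.403 with PBS and -0.074 ± 0.12, adjusted p = 0.625 with soluble OVA. The OVA NP effect differed between tissues by -0.80 ± 0.27, adjusted p = 0.119, called without spleen PBS replicate 3 (-1.03, adjusted p = 0.0443).

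*Vim*, the gene of vimentin, was at 253, 263, and 266 CPM in spleen PBS, 255, 231, and 227 CPM in spleen soluble OVA, and 290, 261, and 273 CPM in spleen OVA NP libraries. In PP it was at 142, 153, and 122, 85.2, 72.8, and 77.5, and 155, 134, and 147 CPM with PBS, soluble OVA, and OVA NP. The spleen libraries were above all PP libraries, and in PP the soluble OVA libraries were below the rest. In PP, soluble OVA gave -0.83 ± 0.093, adjusted p = 0.0003 against PBS, and OVA NP gave 0.90 ± 0.10, adjusted p = 0.000449 against soluble OVA. In spleen the same comparisons gave -0.13 ± 0.061, adjusted p = 0.151 and 0.21 ± 0.072, adjusted p = 0.375. The soluble OVA effect differed between tissues by -0.70 ± 0.12, adjusted p = 0.00253. OVA NP against PBS gave 0.081 ± 0.056, adjusted p = 0.341 in spleen and 0.083 ± 0.10, adjusted p = 0.793 in PP. PP against spleen gave -0.89 ± 0.072, adjusted p = 8.38e-06 in PBS, -1.60 ± 0.08, adjusted p = 6.19e-07 in soluble OVA, and -0.87 ± 0.076, adjusted p = 3.38e-05 in OVA NP groups.

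*Zbtb32*, the repressor gene linked to memory B cells, was at 7.63, 6.67, and 9.59 CPM in PP PBS, 19.4, 18.1, and 18.9 CPM in PP soluble OVA, and 7.45, 5.1, and 8.79 CPM in PP OVA NP libraries. In spleen it was at 12.2, 13.7, and 16.8, 21.8, 19.9, and 24.9, and 22, 18.7, and 22.6 CPM with PBS, soluble OVA, and OVA NP. All 6 treated spleen libraries lay above the 3 PBS libraries, and in PP only soluble OVA stood above PBS. The log2 fold change against PBS was 1.22 ± 0.16, adjusted p = 0.000655 for soluble OVA in PP, 0.65 ± 0.12, adjusted p = 0.00221 for soluble OVA in spleen, and 0.58 ± 0.12, adjusted p = 0.00416 for OVA NP in spleen. In PP, OVA NP gave -0.15 ± 0.24, adjusted p = 0.846 against PBS and -1.39 ± 0.19, adjusted p = 0.00112 against soluble OVA. Neither effect was called different between tissues, at 0.58 ± 0.20, adjusted p = 0.106 for soluble OVA and -0.72 ± 0.27, adjusted p = 0.163 for OVA NP; without PP PBS replicate 3 the first was called (0.74, adjusted p = 0.0455). PP against spleen gave -0.81 ± 0.18, adjusted p = 0.00421 in PBS and -1.52 ± 0.19, adjusted p = 0.000245 in OVA NP groups, and -0.24 ± 0.11, adjusted p = 0.0791 in soluble OVA groups, where the test was not passed.

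*Bhlhe41*, the B-1a repressor gene, moved in opposite directions in the tissues after soluble OVA. It was at 38.1, 36.1, and 36.4 CPM in spleen PBS, 39.6, 44.3, and 48.8 CPM in spleen soluble OVA, and 38.9, 38.2, and 50.5 CPM in spleen OVA NP libraries. In PP it was at 25.2, 28.4, and 25.9, 21.7, 19, and 19.6, and 27.8, 31, and 31.1 CPM with PBS, soluble OVA, and OVA NP. Soluble OVA libraries stood above PBS libraries in spleen and below them in PP, in both cases without overlap. The log2 fold change was 0.26 ± 0.084, adjusted p = 0.0415 in spleen and -0.41 ± 0.10, adjusted p = 0.013 in PP, and the difference between tissues was -0.67 ± 0.13, adjusted p = 0.00541. The spleen call was lost with DESeq2 (adjusted p = 0.0761) and in the fit to all 18 libraries (adjusted p = 0.112). It was also lost without any 1 of the 3 PBS libraries or soluble OVA replicate 2 or 3 (adjusted p = 0.0795, 0.141, 0.0999, 0.0854, and 0.14). With edgeR and no count filter it fell below the fold change threshold (0.243, adjusted p = 0.0367). The PP call was lost without PBS replicate 2 or 3 or soluble OVA replicate 2 or 3 (adjusted p = 0.0762, 0.0565, 0.104, and 0.0899). OVA NP exceeded soluble OVA in PP by 0.59 ± 0.10, adjusted p = 0.0031. OVA NP against PBS gave 0.22 ± 0.10, adjusted p = 0.132 in spleen and 0.19 ± 0.09, adjusted p = 0.524 in PP. The tissue comparison, PP against spleen, gave -0.46 ± 0.075, adjusted p = 0.000655 in PBS, -1.14 ± 0.10, adjusted p = 1.53e-05 in soluble OVA, and -0.46 ± 0.11, adjusted p = 0.00849 in OVA NP groups.

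*Fcrl5*, the gene of a receptor of marginal zone and B-1 cells, was at 22.4, 20.6, and 26.7 CPM in spleen PBS, 18.6, 22.1, and 22.6 CPM in spleen soluble OVA, and 19.1, 19.7, and 22.3 CPM in spleen OVA NP libraries, and these groups overlapped. In PP it was at 12.9, 15, and 11.7, 9.77, 7.37, and 8.73, and 12, 12.8, and 15.8 CPM with PBS, soluble OVA, and OVA NP, and soluble OVA stood below both others. In PP, soluble OVA gave -0.63 ± 0.16, adjusted p = 0.0192 against PBS. The call was lost without PBS replicate 1 or 2 or soluble OVA replicate 2 or 3 (adjusted p = 0.0567, 0.0924, 0.105, and 0.0834). In PP, OVA NP exceeded soluble OVA by 0.66 ± 0.17, adjusted p = 0.0182, a call lost without soluble OVA replicate 2 or 3 or OVA NP replicate 3 (adjusted p = 0.0619, 0.0611, and 0.0895). In spleen the log2 fold change against PBS was -0.14 ± 0.11, adjusted p = 0.415 for soluble OVA and -0.18 ± 0.10, adjusted p = 0.251 for OVA NP. The tissue comparison, PP against spleen, gave -0.80 ± 0.13, adjusted p = 0.000569 in PBS, -1.29 ± 0.14, adjusted p = 6.09e-05 in soluble OVA, and -0.55 ± 0.12, adjusted p = 0.00631 in OVA NP groups. Marginal zone B cell marker RNA was summed over a list of 7 genes that includes *Fcrl5*. In PP it was 1000 to 1150 CPM with PBS, 739 to 823 CPM with soluble OVA, and 1010 to 1090 CPM with OVA NP. In spleen it was 2030 to 2230 CPM with PBS, 1690 to 1950 CPM with soluble OVA, and 1710 to 1970 CPM with OVA NP.

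*Cd5*, the B-1a marker gene, was near the bottom of the detected range, with 17 to 83 counts per library. It was at 2.47, 2.32, and 3.21 CPM in spleen PBS, 1.73, 3.42, and 1.61 CPM in spleen soluble OVA, and 2.18, 1.68, and 3.29 CPM in spleen OVA NP libraries. In PP it was at 1.75, 1.25, and 1.18, 0.91, 0.706, and 0.878, and 1.7, 2.18, and 1.78 CPM with PBS, soluble OVA, and OVA NP. The 3 spleen groups overlapped, and in PP the soluble OVA libraries were the lowest of all 18. T cells also express *Cd5*, and *Cd3e* had a mean of 1.57 CPM in PP soluble OVA, 2.84 CPM in PP PBS, and 5.10 CPM in PP OVA NP, the same order as *Cd5* in PP; in spleen *Cd3e* was lower (0.815 to 0.939 CPM) while *Cd5* was higher, and its part was not tested. OVA NP exceeded soluble OVA in PP by 1.19 ± 0.33, adjusted p = 0.0252, a call kept without soluble OVA replicate 1 and lost without any other library (adjusted p = 0.0511 to 0.0911). Against PBS, PP gave -0.76 ± 0.38, adjusted p = 0.172 for soluble OVA and 0.44 ± 0.33, adjusted p = 0.673 for OVA NP, and spleen gave -0.26 ± 0.31, adjusted p = 0.6 and -0.14 ± 0.28, adjusted p = 0.772. PP against spleen gave -0.90 ± 0.31, adjusted p = 0.0355 in PBS and -1.43 ± 0.40, adjusted p = 0.0137 in soluble OVA groups, and -0.30 ± 0.32, adjusted p = 0.498 in OVA NP groups. The PBS call was lost with DESeq2 (adjusted p = 0.0597) and without any 1 of the 3 spleen PBS libraries or PP PBS replicate 2 or 3 (adjusted p = 0.0555 to 0.119), and the soluble OVA call without spleen soluble OVA replicate 2 (adjusted p = 0.0687).

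The order of the 6 groups by mean level differed among the 10 genes. *Vim*, *Ahnak*, *S100a10*, *Fcrl5*, *Bhlhe41*, and *Cd5* had the 3 spleen groups on top, then PP OVA NP, PP PBS, and PP soluble OVA. *Lgals1* and *Zbtb32* had the 2 treated spleen groups and PP soluble OVA on top, *Anxa2* had the 3 PP groups on top, and *S100a6* was highest in spleen OVA NP and lowest in PP soluble OVA. Means were 211 ± 12.4 CPM (SD, n = 3) for the highest and 19.1 ± 6.07 CPM for the lowest group of *Anxa2*, 274 ± 14.7 and 78.5 ± 6.23 CPM for *Vim*, and 256 ± 11.4 and 47.1 ± 8.79 CPM for *Ahnak*. For *Anxa2*, libraries of PP OVA NP and PP PBS overlapped, as did those of spleen soluble OVA and spleen OVA NP, and of spleen OVA NP and spleen PBS. For *Vim* the overlapping neighbours were spleen OVA NP with spleen PBS, spleen PBS with spleen soluble OVA, and PP OVA NP with PP PBS. PP soluble OVA stood below the group above it without overlap for *Vim*, *S100a10*, *Fcrl5*, *Bhlhe41*, and *Cd5*, and overlapped PP PBS for *Ahnak*. The step from the lowest spleen to the highest PP group was free of overlap for these genes except *Cd5*, and every pair of neighbours overlapped for *S100a6*. Per exon length, on the RPKM scale, *Vim*, *S100a10*, and *Anxa2* reached the highest group means (57.9, 67.0, and 56.4) and *Cd5* the lowest (0.542 at most).

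Family members of the 10 genes were counted from lists that include *Anxa2*, *S100a6*, *S100a10*, *Lgals1*, and *Vim* themselves. In PP, soluble OVA against PBS called 2 higher and 4 lower of 10 annexins tested, where 27.4% of all genes were called (13.5% higher, 13.9% lower). *Anxa11* rose (0.38 ± 0.083) with *Anxa2*, and *Anxa3* (-1.27 ± 0.31), *Anxa5* (-0.99 ± 0.10), *Anxa6* (-0.87 ± 0.11), and *Anxa1* (-0.61 ± 0.20) fell. Of 9 genes tested from the S100 list, 0 rose and 3 fell, *S100a4* (-1.23 ± 0.27), *S100a11* (-0.92 ± 0.12), and *S100a10*. That list includes *S100pbp*, which encodes a binding protein and is not an S100 gene. Of 6 galectins, *Lgals1* rose and *Lgals9* (-0.66 ± 0.20) and *Lgals8* (-0.62 ± 0.095) fell. Of 10 intermediate filament and linker genes, the lamins *Lmnb1* (0.98 ± 0.10) and *Lmnb2* (0.66 ± 0.085) rose, and *Synm* (from a mean of 1.74 CPM to 0.436 CPM), *Vim*, and the linker *Plec* (-0.26 ± 0.079) fell. The median log2 fold change was -0.098 for annexins, -0.65 for S100 genes, -0.016 for galectins, and -0.22 for filament genes, beside -0.017 over all genes.

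**Figure D5:**
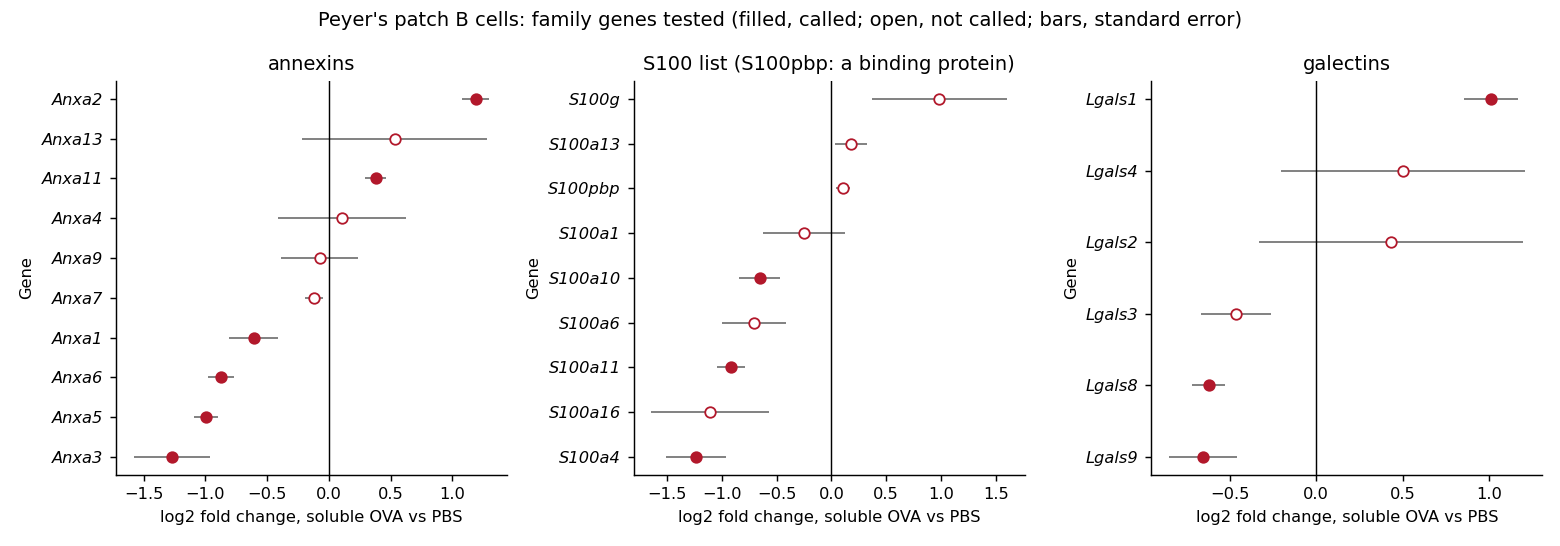
Log2 fold change of soluble OVA against PBS in Peyer's patch for every tested annexin, gene of the S100 list, and galectin (points; bars, SE; filled points pass the test). *Anxa2* and *Anxa11* are the annexins with filled points right of 0, and *Lgals1* is the only such galectin.

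In spleen, where OVA NP against PBS called 15.0% of all genes and soluble OVA 17.2%, OVA NP called 0 of 9 annexins, 0 of 9 S100-list genes, and *Lgals1* alone of 5 galectins, and of 7 filament genes *Lmnb1* (0.89 ± 0.073) and *Lmnb2* (0.26 ± 0.073) rose. Soluble OVA called 0 of 9 annexins, of 9 S100-list genes *S100a11* (-0.30 ± 0.089) and *S100a10* lower, and *Lgals1* alone of 5 galectins. Of 7 filament genes, *Lmnb1* (0.98 ± 0.065), *Lmna* (0.53 ± 0.15), and *Lmnb2* (0.39 ± 0.079) rose and *Plec* (-0.35 ± 0.10) fell. In PP, OVA NP against PBS called 0 genes of these lists by edgeR, where 0% of all 15798 genes were called. OVA NP against soluble OVA in PP called 5 higher and 0 lower of 9 S100-list genes, among them *S100a4* (1.54 ± 0.28) and *S100a11* (0.98 ± 0.13), and 3 higher and 2 lower of 10 annexins, beside 13.8% of all genes higher and 16.3% lower.

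Genes of the B-1 and memory lists also moved in both directions. The B-1 list includes *Cd5*, *Bhlhe41*, *Zbtb32*, and *Fcrl5*, and the memory list includes *Zbtb32* and *Fcrl5*. Counts from these lists thus partly repeat the results above. Of 12 B-1 genes tested in PP after soluble OVA, 2 rose and 5 fell, beside 13.5% and 13.9% of all genes. *Arid3a* (0.58 ± 0.076), a B lineage transcription factor, rose with *Zbtb32*, and *Bhlhe40* (-1.43 ± 0.22), the closest relative of *Bhlhe41*, fell with *Cd9* (-1.36 ± 0.24), *Il5ra* (-1.34 ± 0.26), *Bhlhe41*, and *Fcrl5*. *Il5ra* encodes the IL-5 receptor chain of B-1 cells. Of 13 memory B cell genes, 4 rose and 9 fell, beside the same shares of all genes. *Zbtb32* (1.22 ± 0.16) was among those that rose. *Hhex* (-1.27 ± 0.13), *Ccr6* (-1.15 ± 0.12), and *Pdcd1lg2* (-1.11 ± 0.23) were among those that fell. The median log2 fold change was -0.34 for B-1 genes and -0.73 for memory genes, beside -0.017 over all genes. Of 4 Fc receptor-like genes, *Fcrl5* and *Fcrl1* (-0.54 ± 0.084) fell.

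In spleen, OVA NP called 2 higher and 2 lower of 11 B-1 genes, beside 8.60% and 6.35% of all genes. *Plscr1* (0.38 ± 0.11) and *Zbtb32* rose and *Il5ra* (-1.03 ± 0.16) and *Cd9* (-0.39 ± 0.11) fell. It called 2 higher and 2 lower of 13 memory genes, with *Nt5e* (1.09 ± 0.16), the ecto-nucleotidase CD73, and *Zbtb32* higher and *Itgax* (-0.71 ± 0.18) and *Il9r* (-0.46 ± 0.077) lower. Soluble OVA called 3 higher and 3 lower in each list, beside 10.5% and 6.72% of all genes. Among those higher were *Zbtb32* in both lists, *Bhlhe41* in the B-1 list, and *Nt5e* (1.32 ± 0.17) in the memory list. Among those lower were *Itgam* (-1.11 ± 0.29) and *Il5ra* (-0.74 ± 0.11) in the B-1 list. In the memory list *Itgax* (-0.96 ± 0.22) and *Il9r* (-0.69 ± 0.093) were lower. *Itgam* and *Itgax* are also expressed by myeloid cells, and the monocyte and macrophage sum given above was 31.8 to 76.4 CPM in these libraries and 106 to 248 CPM in those of PBS. No Fc receptor-like gene of 4 was called in spleen with either treatment.

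Genes with the most similar profile over the 18 libraries were listed by Pearson's r of log2 CPM among 9919 candidates. The libraries form tissue clusters and share depth and treatment, so r describes mainly group differences. *Anxa2* was most like *Plxnb2* (r = 0.990), *Optn* (0.989), and *Fgf11* (0.985), *Vim* most like *Rdx* (0.987), *Hdgfl3* (0.985), and *Ly6d* (0.985), and *Ahnak* most like *Rps6ka3* (0.977), *Plec* (0.976), and *Shprh* (0.970). *S100a10* was most like *Irf1* (0.973), *Zfp950* (0.967), and *Unc5cl* (0.965), *Bhlhe41* most like *Lrrk2* (0.977), *Tmem123* (0.977), and *Pkib* (0.962), and *Fcrl5* most like *Flna* (0.977), *Ptpn14* (0.974), and *Notch2* (0.974). The other 4 genes had lower values, with *Lgals1* nearest to *Ssr2* (0.949), *Zbtb32* to *Tmem129* (0.946), *Cd5* to *Ccr1* (0.903), and *S100a6* to *Adam15* (0.861).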

How the data were processed

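RNA-Seq was done on polyA RNA of B cells from the 18 samples. The authors trimmed reads with Cutadapt 2.3, mapped them with STAR 2.7.8a to GRCm38 (ENSEMBL 102), and deposited RSEM 1.3.3 expected counts, which are not normalized and were whole numbers without rounding. Versions come from the submitters' processing notes. Groups and replicate numbers were taken from the sample titles. No replicate pair had identical counts.

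Each comparison used its own 6 libraries (12 for interactions). Genes were filtered with filterByExpr (minimum count 10, minimum total 15), scaled by TMM, and tested with edgeR 4.0.16 in R 4.3.3 (robust quasi-likelihood F test, Benjamini-Hochberg adjustment over all genes tested). The standard error was derived from the F statistic. CPM levels used 1 TMM scale over 18 libraries, and RPKM used exon lengths of a GRCm38 annotation of another release than the authors'. DESeq2 1.42.0, which the authors used, was an alternative, as were its size factors, 2 other count filters, removal of immunoglobulin genes, a fit to all 18 libraries, a replicate block, and leaving out each library. Steps were tested on simulated data.

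The 10 genes and all lists were chosen with earlier results of these data known. The rule named all 10 genes everywhere, the 4 called genes of each other list with the largest fold change, and the 3 genes most like each of the 10 (mean of at least 5 CPM, prior count 2). *Anxa1*, *Anxa11*, *Plec* in PP, and *Arid3a* lie outside it and were named after their values were seen. 1 gene of the GC B cell marker list is not reported here, and the list's sums leave it out. P-values set the difference between groups against the variation between the 3 libraries of a group, estimated with information shared over all genes tested.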

Additional observations from a re-analysis of the deposited data

Results flagged for a closer look

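*Vim* and *Bhlhe41* stood out because their response to soluble OVA differed between tissues by the interaction test itself (edgeR over 12 libraries). For *Vim* the log2 fold change against PBS was lower in PP than in spleen by an interaction of -0.70 ± 0.12 (SE, adjusted p = 0.00253), with -0.83 ± 0.09 in PP and -0.13 ± 0.06 in spleen. For *Bhlhe41* the interaction was -0.67 ± 0.13 (SE, adjusted p = 0.00541), with -0.41 ± 0.10 in PP and 0.26 ± 0.08 in spleen. All 3 PP soluble OVA libraries lay below all 3 PP PBS libraries for both genes. In spleen the *Vim* libraries of the 2 groups overlapped, and those of *Bhlhe41* were higher after soluble OVA. Both interactions passed the threshold in each of the 12 fits that left out 1 library.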

How the results depend on the processing

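Of 770 values of the 10 genes under alternatives other than leaving out a library, 735 kept their direction and their side of the threshold, 13 lost a call, 15 gained one, and 7 changed sign. The sign changes were all in the tissue difference of the OVA NP effect and near 0. They were *Bhlhe41* with DESeq2 (0.0066), DESeq2 size factors (0.0043), and no count filter (0.043), *S100a6* with DESeq2 (0.0037), no filter (0.042), and the replicate block (0.041), and *Vim* with all 18 libraries in 1 fit (-0.0062). The count of genes called for that tissue difference went from 0 to 1 (*Ahnak*) with DESeq2, with at least 10 counts in every library, and with the replicate block. Over all genes the main fit called 734 of 16619 and DESeq2 1253 of 30036. The count filter gave 872 of 12268 and the block 348 of 16619. The cause was not tested.

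Leaving out 1 library gave counts of 1 to 2 for spleen OVA NP against PBS, 2 to 4 for spleen soluble OVA against PBS, 4 to 7 for PP soluble OVA against PBS, 7 to 10 for PP OVA NP against soluble OVA, and 0 in every fit for spleen OVA NP against soluble OVA and for PP OVA NP against PBS. The counts for PP against spleen were 7 to 8 in PBS, 7 to 8 in soluble OVA, and 8 in OVA NP groups, and those for the tissue difference were 0 to 1 for OVA NP and 2 to 3 for soluble OVA. The spleen OVA NP count was 1 without PBS replicate 1, PBS replicate 2, or OVA NP replicate 2. The spleen soluble OVA count was 2 without PBS replicate 1, PBS replicate 2, or soluble OVA replicate 2. The PP soluble OVA count was 4 without soluble OVA replicate 2 and 5 to 7 without any other library. Over all genes, these fits called 1539 to 2889, 1754 to 2472, 3107 to 4073, and 3581 to 4503 in the 4 comparisons named first. They called 0 to 40 for spleen OVA NP against soluble OVA and 0 to 8 for PP OVA NP against PBS. PP against spleen gave 6375 to 7829 in PBS, 7094 to 8248 in soluble OVA, and 4814 to 6276 in OVA NP groups. The tissue difference gave 291 to 945 for OVA NP and 655 to 1279 for soluble OVA. Such fits use fewer samples.

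Values that changed sign when 1 library was left out were all uncalled. Against PBS they ranged over -0.45 to 0.053 for *Cd5* with OVA NP in spleen, -0.14 to 0.26 for *S100a6* with soluble OVA in spleen, and, with OVA NP in PP, -0.32 to 0.042 for *Zbtb32*, -0.063 to 0.14 for *Fcrl5*, -0.048 to 0.15 for *Anxa2*, and -0.015 to 0.25 for *Lgals1*. For spleen OVA NP against soluble OVA they were -0.20 to 0.53 (*Cd5*), -0.18 to 0.046 (*Bhlhe41*), -0.13 to 0.032 (*Zbtb32*), -0.13 to 0.030 (*Fcrl5*), -0.25 to 0.10 (*Anxa2*), and -0.086 to 0.17 (*Lgals1*). For PP against spleen with OVA NP they were -0.50 to 0.0077 (*Cd5*) and -0.48 to 0.044 (*S100a6*). For the tissue difference they were -0.081 to 0.13 (*Bhlhe41*), -0.24 to 0.33 (*S100a6*), and -0.034 to 0.11 (*Vim*) with OVA NP, and -0.065 to 0.33 (*Lgals1*) with soluble OVA.

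With the replicate number as a block, the count of genes called was 1 for spleen OVA NP against PBS (2 without the block), 4 for PP soluble OVA against PBS (7 without it), and 7 for PP OVA NP against soluble OVA (10 without it). Over all genes the counts with and without the block were 2097 and 2123 of 14200, 3111 and 4320 of 15792, and 3119 and 4697 of 15599. The calls lost under the block were *Lgals1* (edgeR adjusted p = 0.104) in the first, *Bhlhe41* (0.0532), *Fcrl5* (0.0705), and *S100a10* (0.0658) in the second, *Cd5* (0.0815), *Fcrl5* (0.0524), and *S100a10* (0.0853) in the third, and *Bhlhe41* (0.0612) for soluble OVA in spleen. Calls gained were *Anxa2* (0.024) and *Ahnak* (0.0038) for soluble OVA in spleen, *Zbtb32* (0.0481) for the tissue difference of soluble OVA, and *Ahnak* (0.0231) for that of OVA NP. The block changed no other call of the 10 genes. Correlations of same-numbered libraries ranged from -0.31 to 0.30 over the groups compared, no comparison had all 3 pairs over 0.1, and no source used here states that equal numbers mark a mouse or a day. With 17 to 83 counts per library, *Cd5* had the lowest counts of the 10. Its SE was not the largest in every comparison. For spleen OVA NP against PBS it was 0.28, beside 0.32 for *Anxa2* and 0.31 for *S100a6*.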
